A study of Mus musculus with 10 samples.

Results

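Cardiac muscle identity rests on a small group of DNA-binding proteins and their coactivators, and 10 of these genes were followed here through cardiomyocyte RNA collected after myocardial infarction (MI). The members were given by name: the GATA zinc finger factors Gata4 and Gata6, the homeodomain factor Nkx2-5, the T-box factors Tbx5 and Tbx20, the basic helix-loop-helix factors Hand1 and Hand2, the MADS-box factor Srf, its coactivator Myocd and the TEA-domain factor Tead1. They are 10 of the 51789 genes listed in the deposited counts, and the rule that names them uses no measured value, although it was set with earlier results of these data known. RNA-Seq libraries came from cardiomyocytes isolated on day 4 after MI in 5 NLC-MI mice, which are non-transgenic littermate controls, and 5 TgGRK5-MI mice, which overexpress the G protein-coupled receptor kinase GRK5 in cardiomyocytes only. Both groups had the infarct and no sham-operated library was analysed here, so the comparison is between genotypes within the infarcted heart. For its surgical cohort the study describes mice of 8 to 12 weeks and both sexes, but the 4 Y-linked genes summed to at least 1700 counts and Xist had at most 12 in each of the 10 libraries, so no library looked female. Each library is 1 replicate of its group in the labels.

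In the embryo these factors bind each other and the same enhancers: GATA4, NKX2-5 and TBX5 switch on contractile genes together, HAND1 and HAND2 pattern the growing chambers, and TBX20 keeps chamber muscle distinct from other heart tissue. SRF binds CArG boxes in contractile, cytoskeletal and immediate early genes, and either myocardin or the growth-responsive ternary complex factors decide which of them it activates. TEAD1 binds M-CAT elements and is the DNA-binding partner of YAP and TAZ in the Hippo pathway. In the adult heart most of the group stays on in cardiomyocytes, while several members, among them Gata4, Gata6, Tbx20, Hand2 and Tead1, are also transcribed in fibroblasts, endothelium or epicardium.

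The libraries held between 7968779 counts in NLC-MI replicate 3 and 23381527 counts in NLC-MI replicate 2, and 3 of them (NLC-MI replicate 3, TgGRK5-MI replicates 3 and 4) had under 15000000. Levels are given as CPM, counts scaled by TMM to a library of 1000000, and the groups were compared with edgeR's quasi-likelihood test over the 15232 genes that passed a filter on low counts. Grk5, which checks the labels, lay between 46.5 and 73.0 CPM in the controls and between 551 and 1698 CPM in the transgenic libraries, a log2 fold change of 4.34 ± 0.32 (SE, n = 5 and 5, adjusted p = 0.000245 by edgeR's quasi-likelihood test). The 10 cardiomyocyte markers were present in all libraries, with a summed level between 41671 and 116136 CPM. Markers of other cells were present too: the 10 fibroblast markers summed to between 4095 and 24949 CPM, and the 10 macrophage markers to between 721 and 2428 CPM. In bulk RNA of this kind, fewer cells of a type and less RNA per cell cannot be told apart.

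Promoter sequence (250 bases up to the RefSeq start site, GRCm38.p6) was found for 4 of the 10 members: Hand2 (gene at chr8:57320983-57324633), Nkx2-5 (chr17:26838664-26845009), Srf (chr17:46548329-46556175) and Tbx20 (chr9:24718138-24774303). Shown here, 5′ to 3′ on the gene's strand with motif matches in capitals, are Srf, because SRF is a member whose own promoter carries its binding letters, Tbx20, the member with the smallest p in the comparison of the groups, and Hand2, because the window lies within the exons of an antisense RNA that bears on its counts.
Srf (chr17:46556163-46556412, minus strand): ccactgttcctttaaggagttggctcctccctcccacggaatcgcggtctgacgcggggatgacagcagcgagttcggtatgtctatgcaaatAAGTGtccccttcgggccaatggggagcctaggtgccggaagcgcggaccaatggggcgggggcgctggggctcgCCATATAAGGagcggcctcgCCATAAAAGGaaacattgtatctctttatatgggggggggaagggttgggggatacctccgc
Tbx20 (chr9:24774304-24774553, minus strand): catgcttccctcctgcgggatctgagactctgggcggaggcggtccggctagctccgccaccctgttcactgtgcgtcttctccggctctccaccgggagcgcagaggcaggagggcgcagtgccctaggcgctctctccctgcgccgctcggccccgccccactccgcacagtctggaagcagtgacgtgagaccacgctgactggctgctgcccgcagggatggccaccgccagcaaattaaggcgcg
Hand2 (chr8:57320733-57320982, plus strand): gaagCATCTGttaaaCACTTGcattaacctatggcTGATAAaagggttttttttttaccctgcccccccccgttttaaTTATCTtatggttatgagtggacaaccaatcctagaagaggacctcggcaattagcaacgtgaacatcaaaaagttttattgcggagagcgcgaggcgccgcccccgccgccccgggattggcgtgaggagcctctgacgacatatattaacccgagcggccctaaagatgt

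The Srf window holds 2 CArG boxes, CCATATAAGG from position -82 to -73 and CCATAAAAGG from -62 to -53 relative to the start site. A CArG box (named here without letters because it allows A or T in its core) was present in 1.47% of the 32851 promoters of the same length. The window also holds 1 AAGTG, the short letters bound by NKX2 factors, which 40.7% of promoters hold. The Hand2 window holds 2 GATA motifs (AGATAA or AGATAG, or the same letters with T as the first base, on either strand, in 26.5% of promoters), 1 of them at -215 to -210 and the other at -172 to -167. It also has 2 E-boxes (CANNTG, 66.2% of promoters), the second of which overlaps an NKX2 match. The Tbx20 window has no match to any of the 6 motifs searched, which included the T-box motif AGGTGT (11.8% of promoters) and the M-CAT motif CATTCC (12.6%). Neither of these last motifs was matched in any of the 4 windows, and the matches describe letters, not binding.

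Of the 10 genes, 9 were expressed in every library, and Hand1, which in the embryo marks the left ventricle and its outer curvature, had 0 counts in all 10. A count of 3, taken as the floor of the depth, corresponds to between 0.121 and 0.392 CPM, so Hand1 lay at or under that level in each library. The sister gene Hand2 had 580 to 1391 counts in the same libraries. All 9 detected factors passed the filter on low counts. The counts behind them ran from 116 for Tbx5 in TgGRK5-MI replicate 5 to 4837 for Tead1 in TgGRK5-MI replicate 1.

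Compared per length, as CPM per kilobase of annotated exon (mean over 10 libraries), the order of the levels was Srf (40.9), Gata4 (36.1), Nkx2-5 (35.4), Hand2 (26.2), Tead1 (13.9), Gata6 (9.82), Tbx20 (9.05), Myocd (4.90) and Tbx5 (4.07). Srf, Gata4 and Nkx2-5 each stood above at least 90.9% of the genes tested, and Tbx5 above 49.6%. The coactivator Myocd lay far below its DNA-binding partner Srf. Neighbours in the order were compared within libraries with a two-sided exact sign-flip permutation test, adjusted over the 8 neighbouring pairs. Gata4 and Nkx2-5 did not differ beyond their spread (log2 difference 0.02 ± 0.41, SD, n = 10, adjusted p = 0.893 by the exact permutation test). Gata6 and Tbx20 did not either (0.14 ± 0.33, SD, n = 10, adjusted p = 0.232 by the exact permutation test). The other 6 neighbours had an adjusted p between 0.00521 and 0.0703. The smallest adjusted p, 0.00521 by the exact permutation test, was shared by the steps from Hand2 to Tead1, from Tead1 to Gata6 and from Tbx20 to Myocd, where the higher gene was higher in 10 of 10 libraries. With the longest transcript as the length, the order was the same, but Hand2 stood above Tead1 by a log2 difference of 0.41 in place of 0.86 and in 8 of 10 libraries, and the adjusted p was 0.138 for Srf against Gata4 and 0.424 for Tead1 against Gata6, while for Gata6 against Tbx20 it was 0.00781 (exact permutation tests).

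**Figure D1:**
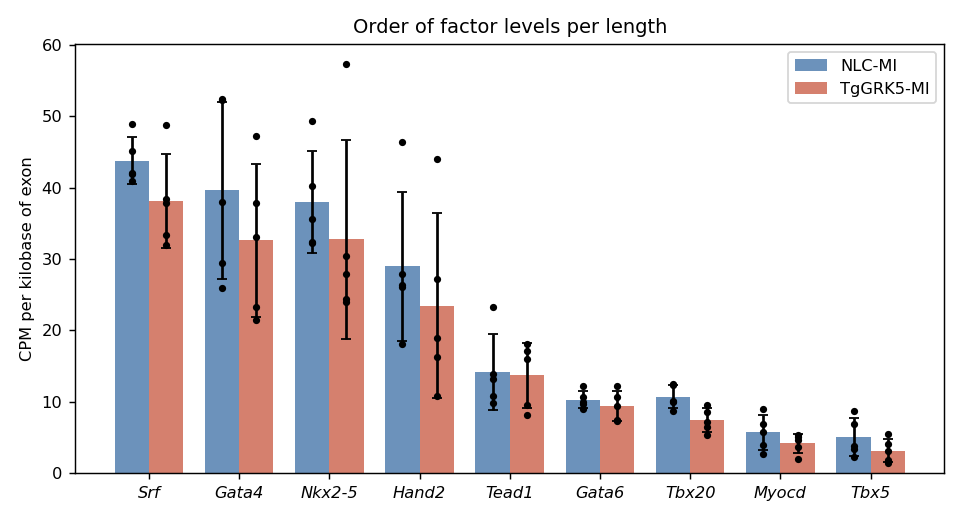
CPM per kilobase of exon (y axis) of the 9 detected factors (x axis) in NLC-MI (blue) and TgGRK5-MI (red). Bars are means of 5 libraries, error bars are SD and points are libraries. Srf, Gata4 and Nkx2-5 stood highest, with means over all libraries of 40.9, 36.1 and 35.4, and Myocd and Tbx5 lowest, with 4.90 and 4.07.

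None of the 9 tested factors passed an adjusted p under 0.10 by edgeR's quasi-likelihood test, a threshold that 0.0788% of all genes tested passed, and none did with DESeq2 or limma-voom, which called 0.242% and 0.328% of genes. At an unadjusted p under 0.05, 1 of the 9 was called, Tbx20, which was lower in TgGRK5-MI. That rule called 3.85% of all genes tested, 2.08% as lower and 1.77% as higher. All 9 factors had a log2 fold change under 0 (median -0.28, range -0.67 to -0.05), whereas 49.8% of all genes tested had one and the median over all genes was 0.00. Across libraries the 9 factors varied together, with a median correlation of 0.71 between pairs, so they are not 9 independent observations of a direction. The groups did not separate fully for any of the 9, against 0.998% of genes tested whose groups did not overlap.

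Tbx20, a T-box factor needed for the upkeep of adult cardiomyocytes, had 119, 104, 150.3, 148 and 121 CPM in NLC-MI replicates 1 to 5 and 102, 76.6, 86.3, 114 and 64.4 CPM in TgGRK5-MI. All 5 TgGRK5-MI libraries lay below the NLC-MI mean and 4 of 5 below the lowest NLC-MI library, and the groups overlapped only through TgGRK5-MI replicate 4 and NLC-MI replicate 2. The mean level was 128.5 ± 20.0 CPM in the controls against 88.7 ± 19.8 CPM in TgGRK5-MI (SD, n = 5). Tbx20 had a log2 fold change of -0.54 ± 0.18 (SE), with a 95% interval from -0.92 to -0.15, and the unadjusted p was 0.0108, with an adjusted p of 0.995 by edgeR's quasi-likelihood test and 0.421 by DESeq2. The exact two-sided permutation test of the 5 and 5 libraries gave p = 0.0159, where the smallest p it allows is 0.00794. By p, Tbx20 ranked 166th among all genes tested.

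Tbx5, the T-box factor mutated in Holt-Oram syndrome and a partner of GATA4 and NKX2-5, had 10.4, 17.8, 40.6, 15.9 and 32.2 CPM in NLC-MI replicates 1 to 5 and 14.7, 8.45, 25.4, 18.7 and 6.22 CPM in TgGRK5-MI. It varied most of all members: the highest library was 6.53 times the lowest, the SD within groups was 0.81 on the log2 scale, and the groups overlapped over most of their range. The log2 fold change, the most negative of the 9, was -0.67 ± 0.43 (SE, unadjusted p = 0.145 by edgeR's quasi-likelihood test), with an interval from -1.61 to 0.27. The ratio of Tbx5 to Tbx20 within libraries differed between the groups by -0.12 on the log2 scale, less than its spread (exact permutation test, p = 0.817).

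Gata4, a zinc finger factor that drives contractile genes and the hypertrophic response, had 101, 115, 205, 204 and 148 CPM in NLC-MI replicates 1 to 5 and 129, 83.6, 185, 148 and 91.0 CPM in TgGRK5-MI. Its relative Gata6, which shares many of its binding sites, had 57.9, 63.0, 65.2, 69.7 and 79.3 CPM in NLC-MI and 69.1, 47.9, 79.4, 60.8 and 47.0 CPM in TgGRK5-MI. For both genes the ranges overlapped, and TgGRK5-MI replicates 2 and 5 were the only TgGRK5-MI libraries under the lowest NLC-MI library. On the log2 scale the change was -0.28 ± 0.26 (SE, unadjusted p = 0.309) for Gata4 and -0.14 ± 0.17 (SE, unadjusted p = 0.424) for Gata6 by edgeR's quasi-likelihood test. Gata4 moved more between libraries than Gata6, with an SD within groups of 0.47 against 0.26 on the log2 scale. The ratio of Gata4 to Gata6 differed between groups by -0.12 on the log2 scale (exact permutation test, p = 0.571).

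Nkx2-5, the homeodomain factor that is among the earliest markers of the heart field, had 55.7, 61.3, 55.5, 69.1 and 84.8 CPM in NLC-MI replicates 1 to 5. In TgGRK5-MI it had 52.2, 41.2, 98.5, 41.8 and 48.0 CPM. Of the 5 TgGRK5-MI libraries, 4 lay below every NLC-MI library, and the remaining one, TgGRK5-MI replicate 3, was the highest of all 10. Nkx2-5 had a log2 fold change of -0.21 ± 0.24 (SE, unadjusted p = 0.398 by edgeR's quasi-likelihood test). Without TgGRK5-MI replicate 3 it was -0.52 with an unadjusted p of 0.00973 by the same test, so 1 library decided whether Nkx2-5 was called.

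Hand2, a helix-loop-helix factor of the right ventricle, outflow tract and cardiac fibroblasts, had 61.2, 42.5, 109, 62.0 and 65.7 CPM in NLC-MI replicates 1 to 5 and 38.3, 25.3, 104, 64.0 and 44.4 CPM in TgGRK5-MI. NLC-MI replicate 3 and TgGRK5-MI replicate 3 were far above the other libraries of their groups. The log2 fold change was -0.31 ± 0.35 (SE, unadjusted p = 0.401 by edgeR's quasi-likelihood test). The antisense RNA Hand2os1, whose exons share 461 bases (19.6%) with those of Hand2, had 29.2 ± 12.3 CPM in the NLC-MI libraries and 24.6 ± 8.10 in the TgGRK5-MI libraries (SD, n = 5). It held between 16.7% and 45.6% of the counts of the pair. The library kit named in the labels does not mark strand, so reads from the shared bases cannot be assigned to one or the other.

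Srf, the factor that binds CArG boxes, was the steadiest member, with 122, 119, 130.5, 142 and 121 CPM in NLC-MI replicates 1 to 5 and 109.7, 92.4, 141, 111 and 96.5 CPM in TgGRK5-MI. Of the 5 TgGRK5-MI libraries, 4 lay below the lowest NLC-MI library, again with TgGRK5-MI replicate 3 as the exception. Srf had a log2 fold change of -0.20 ± 0.14 (SE, unadjusted p = 0.176 by edgeR's quasi-likelihood test). Myocd, its muscle-specific coactivator, had 17.2, 25.6, 58.0, 44.4 and 37.3 CPM in NLC-MI and 29.9, 12.5, 34.5, 32.0 and 23.8 CPM in TgGRK5-MI. The 3 highest NLC-MI libraries were above all TgGRK5-MI libraries and 1 TgGRK5-MI library was below all NLC-MI libraries. The log2 fold change of Myocd was -0.46 ± 0.33 (SE, unadjusted p = 0.196 by edgeR's quasi-likelihood test), and the ratio of Myocd to Srf differed by -0.20 on the log2 scale (exact permutation test, p = 0.556). For each of the 3 ratios the p adjusted over the 3 was 0.817.

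Tead1, the TEA-domain factor with the most counts of the group, had 132, 147, 315, 189 and 179 CPM in NLC-MI replicates 1 to 5 and 216, 110.1, 231, 245 and 128 CPM in TgGRK5-MI. The groups covered much the same range. On the log2 scale the change was -0.05 ± 0.28 (SE, unadjusted p = 0.871 by edgeR's quasi-likelihood test), with an interval from -0.67 to 0.57. Its sign turned without NLC-MI replicate 3 (0.20), without TgGRK5-MI replicate 2 (0.09) or 5 (0.06), and with limma-voom (0.082).

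**Figure D2:**
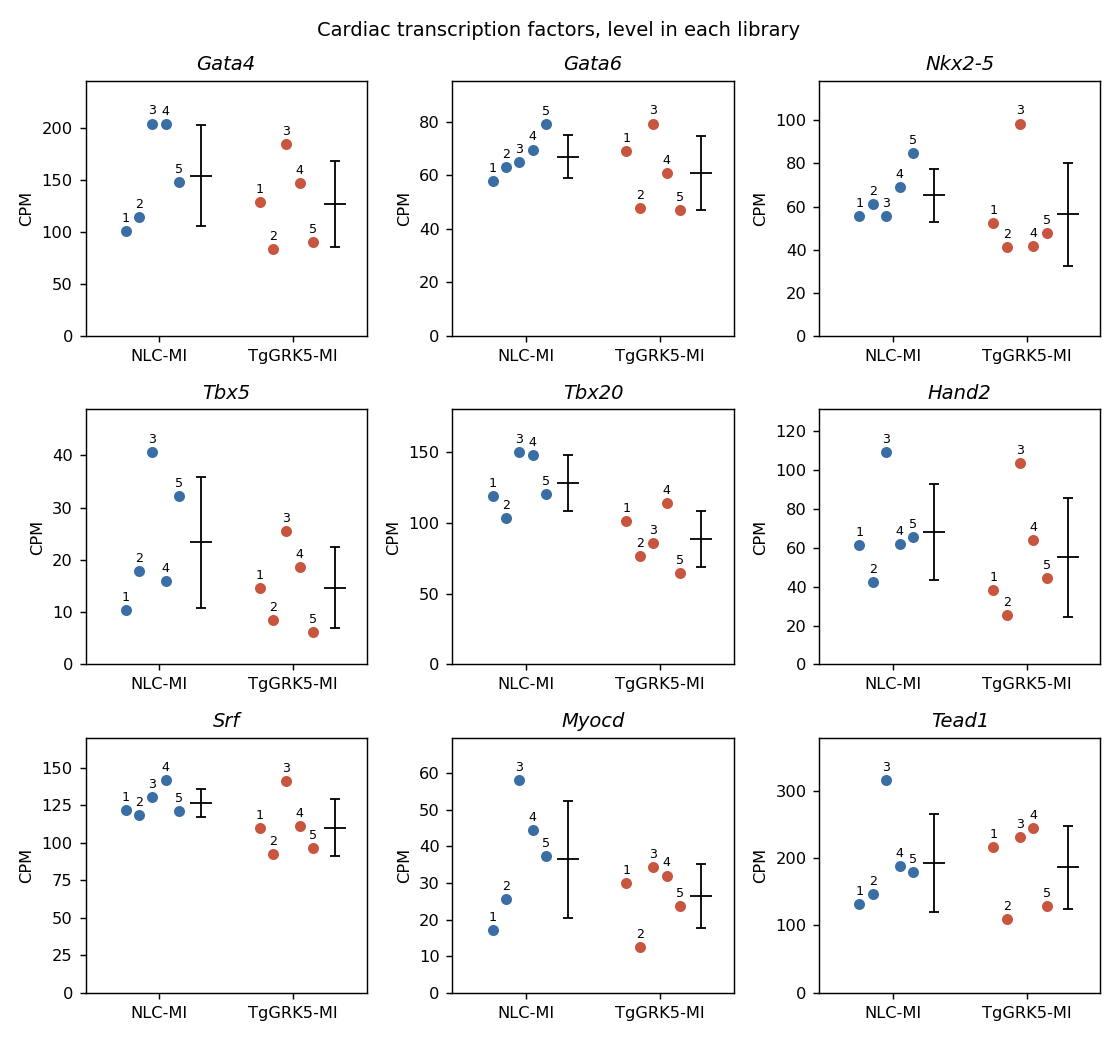
CPM (y axis, each from 0) of the 9 detected factors in the 5 NLC-MI (blue) and 5 TgGRK5-MI (red) libraries. Points are libraries with their replicate number, black marks are the mean ± SD. Tbx20 shows 4 of 5 TgGRK5-MI libraries below the lowest NLC-MI library, and in the Nkx2-5 panel TgGRK5-MI replicate 3 stands at 98.5 CPM above the other 4.

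Several of these values moved with single libraries. TgGRK5-MI replicate 3 was the highest library of its group for Gata4, Gata6, Nkx2-5, Tbx5, Hand2, Srf and Myocd. NLC-MI replicate 3 was the highest of all 10 libraries for Gata4, Tbx5, Tbx20, Hand2, Myocd and Tead1. Both were among the 3 libraries under 15000000 counts. Over the 7 libraries of at least 15000000 counts, 5 factors had an unadjusted p under 0.05 by edgeR's quasi-likelihood test and all 5 were lower in TgGRK5-MI, where that rule called 1.93% of genes tested as lower. They were Nkx2-5 (-0.53), Tbx5 (-0.97), Tbx20 (-0.61), Hand2 (-0.69) and Srf (-0.34), as log2 fold changes with p between 0.0131 and 0.0454. Without TgGRK5-MI replicate 3 alone the called factors were the same 5, against 2.20% of genes called as lower. Both settings were chosen or read after these libraries were seen to stand apart, and none of the 5 passed an adjusted p under 0.10 in either, a threshold that 0.0383% and 0.0257% of genes passed. Without NLC-MI replicate 3 alone, Tbx20 (-0.47) was the 1 factor with an unadjusted p under 0.05 by edgeR's quasi-likelihood test, against 3.07% of genes called as lower, and the log2 fold change was -0.07 for Hand2, -0.16 for Gata4, -0.23 for Myocd and -0.38 for Tbx5. Over the 10 libraries, 2 of the 9 factors had a relation to the log2 library total with an adjusted p under 0.10 (adjusted over the 9). The share of all genes tested with a relation this strong was not computed. The count therefore cannot be read as a trait of these factors. Tead1 had r = -0.77 (permutation p = 0.00798, adjusted p = 0.0718; Spearman's coefficient = -0.60, permutation p = 0.0733), and r was -0.45 without the 2 libraries farthest from the median total. Hand2 had r = -0.71 (permutation p = 0.0209, adjusted p = 0.0940; Spearman's coefficient = -0.87, permutation p = 0.00207), and r was -0.75 without them.

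**Figure D3:**
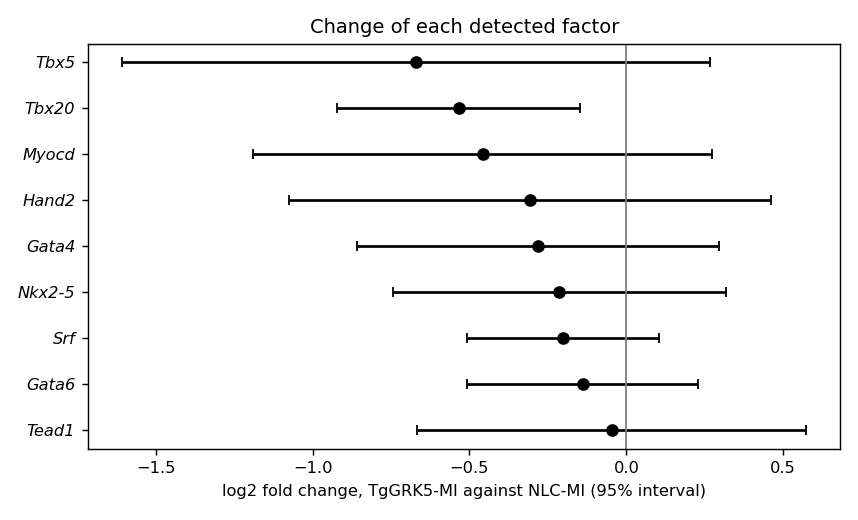
Log2 fold change of TgGRK5-MI against NLC-MI (x axis) for the 9 detected factors, with 95% intervals from edgeR's quasi-likelihood fit over 5 and 5 libraries. All points lie under 0, from -0.67 for Tbx5 to -0.05 for Tead1, and the interval of Tbx20, from -0.92 to -0.15, is the only one that leaves out 0.

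The factors varied together from library to library. Over the 36 pairs, the Pearson correlation of deviations from the group means of log2 CPM (10 libraries, which share their depth and composition) had a median of 0.71 and lay above 0.5 in 30 pairs. The highest was between Gata4 and Myocd at 0.91, and the only one under 0 was between Nkx2-5 and Tbx20 at -0.04. TgGRK5-MI replicate 2 was the lowest of all libraries for 6 factors (Gata4, Nkx2-5, Hand2, Srf, Myocd and Tead1) and TgGRK5-MI replicate 5 for Gata6, Tbx5 and Tbx20. Among 9703 other genes with at least 10 CPM on average, the genes whose deviations were most like those of each factor were Usp10 (0.99) and Gbe1 (0.98) for Gata4, Tbck (0.94) and 6030458C11Rik (0.93) for Gata6, and Eri3 (0.97) and Noa1 (0.95) for Nkx2-5. For the T-box factors they were Elmod3 and Cat (both 0.98) for Tbx5, and Lig4 (0.95) and Lrrc58 (0.94) for Tbx20. They were Znhit1 and Gsto1 (both 0.97) for Hand2, Jup (0.94) and Git1 (0.92) for Srf, Prune2 and Pde1c (both 0.98) for Myocd, and Nufip2 and Ptpn4 (both 0.99) for Tead1. These correlations are descriptions over 10 libraries, and the most similar gene of so many candidates is bound to be close. No median over pairs of other genes was computed, so the shared variation is not shown to be particular to the factors.

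This shared variation moved with markers of other cells. Across the 10 libraries, log2 CPM of each of the 9 factors was compared with the summed CPM of 6 marker lists, 54 relations in all, and p-values from 100000 permutations were adjusted over the 54. All 9 factors were lower where the macrophage markers were higher (Pearson r from -0.93 to -0.54), 6 of them with an adjusted p under 0.10. Of all 15232 genes tested, 49.8% were lower where these markers were higher, and 7.76% had an r at or under that of the weakest of the 6 factors (-0.69). Myocd followed the macrophage sum most closely (r = -0.93, permutation p = 0.00011, adjusted p = 0.00594; Spearman's coefficient = -0.98, permutation p = 4e-05, adjusted p = 0.00216), and r was -0.90 without NLC-MI replicate 3 and TgGRK5-MI replicate 2. Gata4 gave r = -0.87 (permutation p = 0.00207, adjusted p = 0.0400) and Spearman's coefficient = -0.94 (permutation p = 0.0003, adjusted p = 0.0081), and r was -0.77 without the same libraries. Tbx5 gave r = -0.85 (permutation p = 0.00275, adjusted p = 0.0400) and Spearman's coefficient = -0.83 (permutation p = 0.00484, adjusted p = 0.0523), and r was -0.74 without them. For Tbx20, r was -0.65 (permutation p = 0.0455, adjusted p = 0.115) and Spearman's coefficient was -0.67 (permutation p = 0.0401, adjusted p = 0.102), and r was -0.42 without these libraries.

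**Figure D4:**
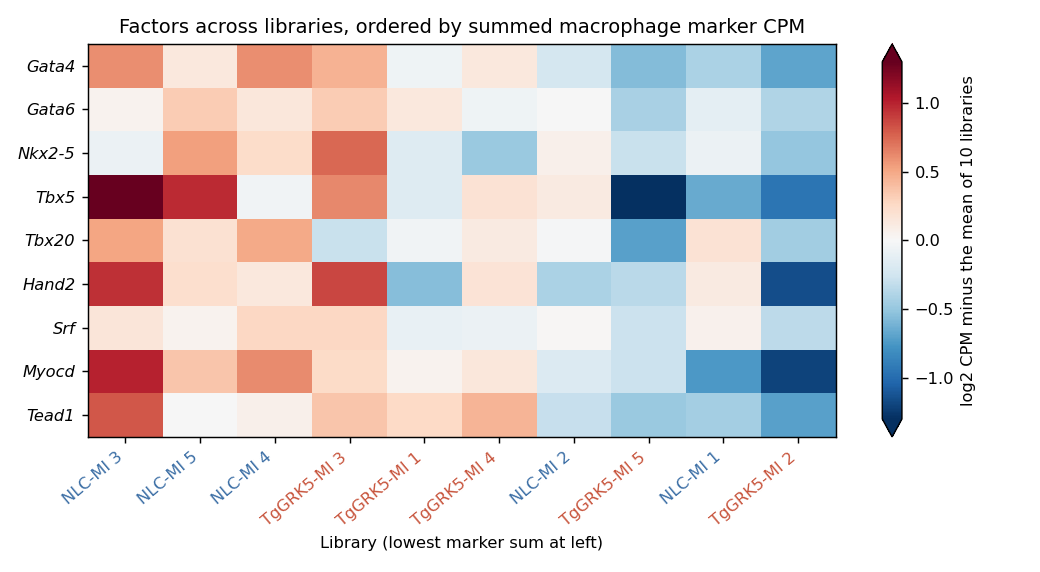
Log2 CPM of the 9 detected factors (rows) minus each factor's mean over 10 libraries, with libraries (columns, NLC-MI in blue, TgGRK5-MI in red) ordered by summed macrophage marker CPM, lowest at the left. Values above the mean are red and sit mostly at the left, and values under it are blue and sit mostly at the right, which holds libraries of both groups.

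The sums of fibroblast, atrial and smooth muscle markers were also related negatively to all 9 factors, with an adjusted p under 0.10 for 3, 4 and 3 of them by Pearson r and for 3, 4 and 0 by Spearman's coefficient. Of all genes tested, 50.8%, 48.3% and 51.5% were related negatively to these sums, and 8.46%, 13.2% and 7.38% had an r at or under the weakest of these. Without the 2 libraries farthest from the median of each sum, r turned to 0.25 for Nkx2-5 with the atrial sum. For Tbx20 it turned to 0.01 with the fibroblast and with the smooth muscle sum, and every other r stayed under 0. Nppa, the atrial natriuretic peptide, which is also made by stressed ventricle, held between 77.7% and 97.1% of the atrial sum and had a log2 fold change of -0.04. The cardiomyocyte sum was related positively to all 9 (r from 0.24 to 0.83), 3 of them with an adjusted p under 0.10. Of all genes tested, 50.2% were related positively to it and 8.87% had an r at least as high as the weakest of the 3. Gata6 stood closest to it (r = 0.83, permutation p = 0.00296, adjusted p = 0.0400; Spearman's coefficient = 0.87, permutation p = 0.00226, adjusted p = 0.0407), and r was 0.88 without NLC-MI replicates 1 and 5. The endothelial sum had no adjusted p under 0.10 with any factor. Tbx20 had the weakest relation of the 9 to the fibroblast (r = -0.20, permutation p = 0.568, adjusted p = 0.614; Spearman's coefficient = -0.39, permutation p = 0.264, adjusted p = 0.347) and cardiomyocyte sums. With the fibroblast sum as a covariate, also chosen after seeing the data, its log2 fold change was -0.53 (unadjusted p = 0.0106 by edgeR's quasi-likelihood test). That fit called 2.93% of genes as lower and 3.76% as higher. With the macrophage sum as a covariate, chosen after seeing the data, the log2 fold change of Tbx20 was -0.42 (unadjusted p = 0.0243 by edgeR's quasi-likelihood test, where 3.66% of genes were called as lower and 6.51% as higher). Under the same covariate the other 8 factors had a log2 fold change between -0.18 (Tbx5) and 0.25 (Tead1), none with an unadjusted p under 0.05, and 6 of the 9 were under 0. Within a group there are 5 libraries, too few for a correlation.

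Between the groups, the macrophage sum ranged from 721 to 2177 CPM in controls and from 1173 to 2428 CPM with the transgene, and 9 of its 10 genes had a log2 fold change above 0 (median 0.19, exact permutation p of the sum 0.278). The fibroblast sum ranged from 4095 to 24250 CPM in controls and from 4252 to 24949 CPM with the transgene (exact permutation p = 0.921). The atrial markers that were tested, 7 of 8, all had a log2 fold change under 0 (median -0.70). Of these, 2 had an unadjusted p under 0.05 by edgeR's quasi-likelihood test, where 2.08% of all genes were called as lower. The atrial sum, held mostly by Nppa, had a log2 difference of -0.12 between the groups (exact permutation p = 0.746). All 6 epicardial markers had a log2 fold change above 0 (median 0.51) and 3 of the 4 tested neutrophil markers did, none with an unadjusted p under 0.05. The exact permutation p was 0.484 for the epicardial sum and 0.810 for the neutrophil sum. No marker gene of these lists was at 0 in every library. Beyond the covariate fits, the part of these other cells in the levels of the 9 factors was not tested.

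**Figure D5:**
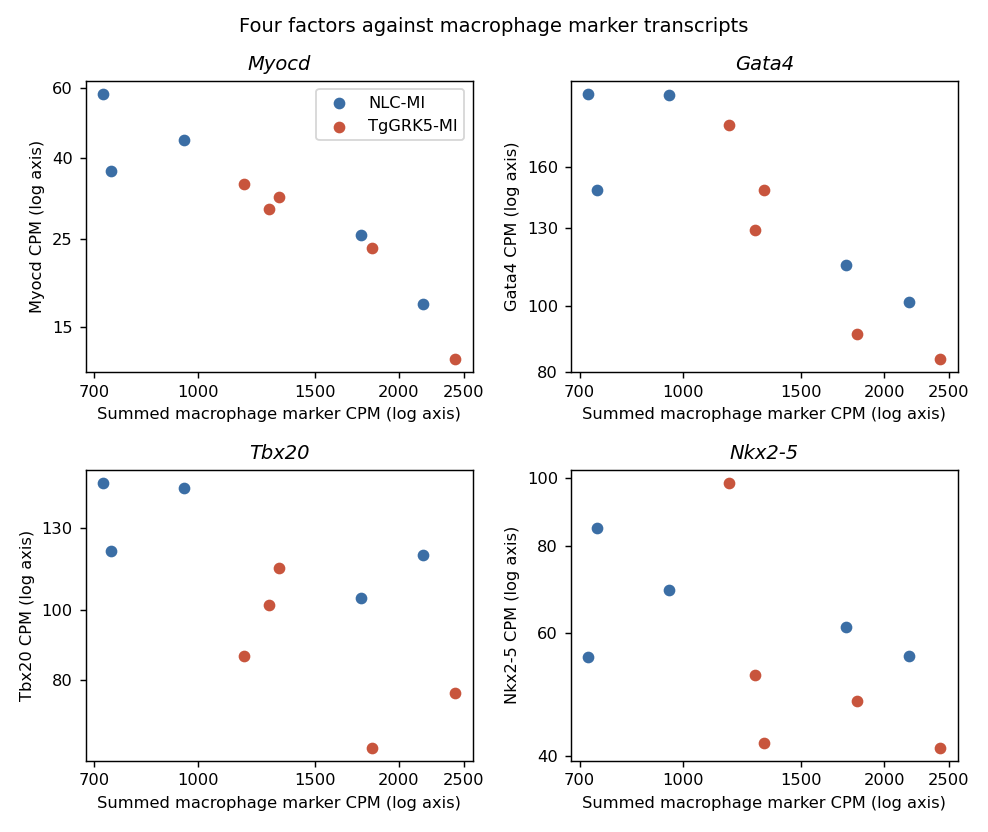
CPM of Myocd, Gata4, Tbx20 and Nkx2-5 (y axes) against the summed CPM of 10 macrophage markers (x axis), both on log axes, in NLC-MI (blue) and TgGRK5-MI (red) libraries. Myocd falls along the whole range (r = -0.93), with libraries of both groups along it, and the points of Tbx20 (r = -0.65) scatter more.

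The genes around the factors were read from 6 lists of cofactors, paralogs, other heart factors and targets. Of their 144 distinct genes, 133 were tested. Of these, 14 (10.5%) had an unadjusted p under 0.05 by edgeR's quasi-likelihood test and all 14 were lower in TgGRK5-MI. That rule called 3.85% of all genes tested, 2.08% as lower. A log2 fold change under 0 was found for 95 of the 133 (71.4%, median -0.11), against 49.8% of all genes tested. The same shares of all genes apply to each list below. Correlations among the list genes were not computed, so these genes cannot be read as independent observations of a direction. None passed an adjusted p under 0.10 by edgeR's quasi-likelihood test or limma-voom, and 1, Fos, did by DESeq2.

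Among 22 tested cofactors and partners, 18 had a log2 fold change under 0 (median -0.24) and 3 (13.6%) had an unadjusted p under 0.05, all lower in TgGRK5-MI by edgeR's quasi-likelihood test. Jarid2, a partner of Polycomb repressive complexes that is needed for heart development, had a log2 fold change of -0.46 ± 0.17 (SE, unadjusted p = 0.0188), and its groups did not overlap. Smarca4, the BRG1 motor of the BAF chromatin remodelling complex that works with GATA4, NKX2-5 and TBX5, had -0.30 ± 0.13 (SE, unadjusted p = 0.0394). Hopx, a small homeodomain protein that restrains SRF, had -0.62 ± 0.28 (SE, unadjusted p = 0.0484). No cofactor had an unadjusted p under 0.05 in the other direction.

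Of the 17 paralogs from the same families, 11 were tested and none had an unadjusted p under 0.05 (median log2 fold change -0.02). Nkx2-3 and Nkx2-6 had 0 counts in all libraries, as Hand1 did (these names were chosen after their values were seen). The most abundant paralogs in CPM were the myocardin-related coactivators Mrtfb (40.5 ± 6.66 in NLC-MI and 33.6 ± 5.07 in TgGRK5-MI, SD, n = 5) and Mrtfa (19.3 ± 7.11 and 19.1 ± 4.67). Of 25 other heart developmental factors, 22 were tested, 16 had a log2 fold change under 0 (median -0.17) and none had an unadjusted p under 0.05. The most abundant in CPM were Esrra, a nuclear receptor of energy metabolism (119.6 ± 44.6 and 88.2 ± 27.6), and Prrx1, a homeodomain factor of mesenchymal cells (77.1 ± 14.0 and 85.1 ± 13.3).

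Among 34 tested cardiac muscle targets, 22 had a log2 fold change under 0 (median -0.09), and 5 (14.7%) had an unadjusted p under 0.05, all lower in TgGRK5-MI by edgeR's quasi-likelihood test. Among them were Ryr2, the calcium release channel of the sarcoplasmic reticulum (-0.93 ± 0.30, SE, unadjusted p = 0.00902), and Kcnh2, a repolarizing potassium channel (-0.77 ± 0.26, SE, unadjusted p = 0.0127). Myl7, the atrial myosin light chain (-1.27 ± 0.55, SE, unadjusted p = 0.0406), is also one of the atrial markers, and Hopx was named above. The other 12 genes had a log2 fold change above 0, none with an unadjusted p under 0.05, among them Myh7, the fetal myosin heavy chain (0.74 ± 0.38, SE, unadjusted p = 0.0728), and Acta1, skeletal alpha-actin (0.59 ± 0.31, SE, unadjusted p = 0.0775), both named after their values were seen.

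All 28 SRF targets were tested, and 3 (10.7%) had an unadjusted p under 0.05, all lower in TgGRK5-MI by edgeR's quasi-likelihood test (median of the list -0.06). These 3 were immediate early genes, which answer growth signals and cell stress within minutes. Fos, a subunit of the AP-1 factor, had the most negative log2 fold change (-1.34 ± 0.33, SE, unadjusted p = 0.00177, adjusted p = 0.0348 by DESeq2), and its groups did not overlap. Junb, another AP-1 subunit, had -0.75 ± 0.21 (SE, unadjusted p = 0.00436), and Ier2 had -0.50 ± 0.22 (SE, unadjusted p = 0.0441). No cytoskeletal gene of the list had an unadjusted p under 0.05.

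Of the 22 TEAD targets, 18 had a log2 fold change under 0 (median -0.13), and 4 (18.2%) had an unadjusted p under 0.05, all lower in TgGRK5-MI by edgeR's quasi-likelihood test. They were Arhgef17, a guanine nucleotide exchange factor (-0.43 ± 0.14, SE, unadjusted p = 0.00983), whose groups did not overlap, Amotl2 (-0.37 ± 0.16, unadjusted p = 0.0367) and Amotl1 (-0.32 ± 0.14, unadjusted p = 0.0394), angiomotin proteins that bind YAP, and Dock5, a Rac exchange factor (-0.41 ± 0.18, unadjusted p = 0.0458). With library size alone as the scaling, 1 of the 22 was under that threshold, where 2.15% of all genes were called as lower. It was also 1 without the filter on low counts, where 4.08% of all genes were called in either direction. With each library left out the count ran from 1 (without TgGRK5-MI replicate 4 or 5, where 3.48% and 3.49% of genes were called) to 4. The summed CPM of the list was higher in TgGRK5-MI, by a log2 difference of 0.26 (exact permutation p = 0.294). Among the canonical targets, named after their values were seen, Ccn1 had a log2 fold change of -0.44 ± 0.22 (SE, unadjusted p = 0.0760), Ccn2 of 0.09 and Ankrd1 of 0.37, none of them past the threshold.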

How the data were processed

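RNA-Seq was performed on cardiomyocytes of day 4 post-MI, with 5 libraries per genotype. The authors deposited raw gene counts as whole numbers, which were not normalized. The submitters' processing notes name Bowtie2, RSEM 1.2.31, DESeq2 and the mm10 build without their roles, so estimated counts may have been rounded before deposit. GENCODE M21 gave symbols and exon lengths and held 51596 of the 51789 identifiers. Counts were analysed in R 4.3.3 with edgeR 4.0.16 (TMM, filterByExpr by group, quasi-likelihood F test, Benjamini-Hochberg adjustment over 15232 genes, thresholds of an adjusted p under 0.10, as in the study, and an unadjusted p under 0.05). SE is the absolute log2 fold change divided by the square root of F. Log2 CPM used a prior count of 2. Single factors and ratios were compared with two-sided exact permutation tests over all 252 placements of 5 and 5 libraries.

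Alternatives were DESeq2 1.42.0, limma-voom (limma 3.58.1), scaling by RLE or by library size alone, other filters and prior counts, the replicate number as a block, an Xist minus Y-linked covariate and each library left out. A covariate for library total, others for the fibroblast and macrophage marker sums, and the libraries of at least 15000000 counts were chosen after seeing the data. The factors and gene lists were chosen with earlier results of these data known. Named genes were the factors, Grk5, up to 4 genes per list with the smallest unadjusted p under 0.05 (or the 2 most abundant where fewer than 2 passed), and the 2 most similar genes of each factor. Beyond genotype, infarct and number, nothing in the labels describes the mice. The p-values of the group comparison weigh a difference between the groups against the spread between these libraries. No pair of libraries agreed within sampling noise. Tests were tried on simulated counts. Promoters are from RefSeq (GRCm38.p6). The results for some items are left out of the text.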

Additional observations from a re-analysis of the deposited data

Results flagged for a closer look

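In 1 of 18 sets of 5 libraries (9 factors in 2 groups), a library stood apart from the rest of its group by Dixon's test. Nkx2-5 was at 98.5 CPM in TgGRK5-MI replicate 3 and between 41.2 and 52.2 CPM in the other 4 TgGRK5-MI libraries. Chance alone flags about 1 in 20 such sets. The cause was not tested.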

How the results depend on the processing

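No factor passed an adjusted p under 0.10 in any of the settings run, and Tbx20 kept a negative log2 fold change in all 22 alternatives (from -0.64 to -0.32, adjusted p from 0.351 to 1.00) and an unadjusted p under 0.05 in 21 of them. The exception was the Xist minus Y-linked covariate (unadjusted p = 0.176 by edgeR's quasi-likelihood test), under which 0 factors were called. Xist had at most 12 counts in any library while the 4 Y-linked genes had at least 1700, so this covariate compared no sexes. On the log2 scale it ran from -8.45 to -8.31 in TgGRK5-MI and from -8.38 to -7.30 in NLC-MI. It therefore partly overlapped the contrast between the groups. The count of factors called at an unadjusted p under 0.05, 1 as reported, was 5 with libraries of at least 15000000 counts and from 1 to 5 with each library left out (5 without TgGRK5-MI replicate 3). The count of factors whose groups do not overlap, 0 as reported, ran from 0 to 2 with each library left out (1 without NLC-MI replicate 2, 2 without TgGRK5-MI replicate 3, 1 without TgGRK5-MI replicate 4), where 1.18%, 1.42% and 1.48% of all genes tested did not overlap. Tead1 turned positive with limma-voom (0.082), with the Xist minus Y-linked covariate (0.24), and without NLC-MI replicate 3 (0.20), TgGRK5-MI replicate 2 (0.09) or replicate 5 (0.06), with a range from -0.17 to 0.20 as each library was left out, and Hand2 did with that covariate (0.013). With the macrophage covariate Tead1 (0.25), Gata4 (0.011) and Myocd (0.00045) turned positive. The neighbouring levels that differed, 6 as reported, ran from 4 to 6 with each library left out. The 12 genes called at an adjusted p under 0.10 were 69 with DESeq2, 50 with limma-voom, 2 with the Xist minus Y-linked covariate, 20 with the library total covariate, 28 with the fibroblast covariate, 26 with the macrophage covariate, 6 with libraries of at least 15000000 counts, and from 3 to 10 with each library left out. The 14 genes of the 6 lists became 24 with the library total covariate and ran from 7 (without TgGRK5-MI replicate 5) to 16 with each library left out. The cause was not tested.

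Replicate numbers are shared by different mice, and same-numbered libraries had correlations of deviations of 0.0717, 0.662, 0.381, -0.341 and 0.0848, with 2 of 10 libraries closest to their own number. A fit blocked on that number gave 8 genes with an adjusted p under 0.10 and 2 factors called, Tbx20 (unadjusted p = 0.00726) and Hand2 (unadjusted p = 0.0420), where 3.97% of all genes were called, 1.93% as lower. The lowest counts of the detected factors were those of Tbx5 and Myocd, with as few as 116 and 287 in a library. What part depth has in their spread was not tested. For Hand1 3 counts set the floor.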
